A study of Mus musculus with 12 samples.

Results

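Neto2, P2rx3, Gria2, Aqp8, Slc22a3, Atp1b1 and Slc16a12 encode ion channel subunits, membrane transporters or their partner proteins, and their RNA was followed across the 12 arrays of a study on Hoxa9 and Meis1. The 7 genes were taken from 22296 gene symbols on the array, with the measured differences between conditions in view: the first 6 stood out with full-length Meis1 and Slc16a12 and Gria2 with Meis1 that lacks its homeodomain. These differences are therefore given as a description with their standard errors and without a test. Tests are given only for the week of culture and for the dependence of the differences on week.

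All cells were primary cultures of bone marrow progenitors from 12-week-old female C57B/6 mice given 5-FU (5-fluorouracil, which kills cycling cells and leaves early progenitors), transduced with MSCV retroviral vectors and grown in DMEM with 15% fetal calf serum, IL3, SCF and IL6. Every condition carried Hoxa9. Beside it, HOXA9+MIY had an empty vector, HOXA9+MEIS1 had full-length Meis1 and HOXA9+MDHD had Meis1 without its homeodomain, so that no array shows cells without the Hoxa9 vector. Each condition had 4 arrays, with 2 from week 3 of culture and 2 from week 4, numbered 1 and 2. The series describes 4 independent experiments per condition, and whether weeks share a culture is not given. RNA was measured on an Affymetrix mouse exon array and is given as log2 intensity, where a difference of 1 is 2-fold. The level of one gene cannot be set against that of another on this scale, because probes differ in brightness.

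Neto2 is an auxiliary subunit of kainate receptors, and Gria2 is a subunit of AMPA receptors; both kinds of receptor are cation channels opened by glutamate and are best known from neurons. P2rx3 is a cation channel opened by extracellular ATP and is known from sensory neurons. Aqp8 is a water channel of the aquaporin family that also passes hydrogen peroxide, Slc22a3 is a carrier of organic cations, Slc16a12 is a creatine transporter of the monocarboxylate transporter family, and Atp1b1 is the beta subunit that brings the catalytic subunit of the sodium pump to the cell surface. Whether the genes are silent in marrow cells outside these cultures was not measured.

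The vectors and the cultures were checked first. Hoxa9 lay between 13.18 and 13.46 on all 12 arrays. Of 23 Meis1 probe sets, 3 were taken for the deleted part because they were at least 3 lower on the log2 scale in HOXA9+MDHD than in HOXA9+MEIS1 with an adjusted p under 0.05; no positions were used, so their lower level in HOXA9+MDHD restates the choice. Their mean lay between 12.83 and 13.06 in HOXA9+MEIS1 and between 6.04 and 6.56 in HOXA9+MIY. In arrays 1 and 2 of HOXA9+MDHD it was 8.97 and 7.63 at week 3, then 8.67 and 6.80 at week 4. Both arrays of number 1 thus held more signal from the deleted part than both of number 2. In 1 of the 3 probe sets the gap was smaller, with 9.07 and 8.95, then 9.43 and 8.83. The gene value of Meis1, which includes the 3, was also higher in number 1. For arrays 1 and 2 it was 9.61 and 9.12 at week 3, then 9.75 and 9.30 at week 4. Whether the excess was particular to the deleted part was not tested. The mean gene value of Meis1 was 9.44 without the homeodomain, 9.73 with the full-length form and 6.85 with the empty vector. For the 7 genes, the differences of HOXA9+MDHD from HOXA9+MIY and the distances from a midpoint are given with and without the 2 arrays of number 1. Positions, overlap counts, probe sets, markers and single family genes are given with all 4 HOXA9+MDHD arrays. Markers of maturation also differed: 11 of 12 late neutrophil genes were lower in HOXA9+MEIS1 than in HOXA9+MIY, 8 of 11 monocyte and macrophage genes were lower and 1 higher, and 7 of 11 stem and early progenitor genes were higher and 2 lower (limma, adjusted p under 0.05), against 5.29% of all genes called higher, 5.56% lower and 10.8% in either direction. The summed linear level of the late neutrophil genes ran from 24136 to 36554 in HOXA9+MIY, 7686 to 9516 in HOXA9+MEIS1 and 7008 to 27450 in HOXA9+MDHD, and that of the monocyte and macrophage genes from 22076 to 23133, 8694 to 11937 and 14520 to 24745. That of the stem and early progenitor genes overlapped between conditions, from 7214 to 8991, 7635 to 9720 and 8094 to 9630. In HOXA9+MEIS1 minus HOXA9+MIY the largest changes called in that list were 3.17 for Flt3 and -3.01 for Ly6a. The part of these marker changes in the results was not tested, and in such bulk RNA fewer cells of a type and less RNA per cell cannot be told apart.

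With full-length Meis1 the 7 genes were 4.36-fold to 11.7-fold higher than with the empty vector, and in each of them all 4 HOXA9+MEIS1 arrays lay above all 4 HOXA9+MIY arrays. Among all 20711 genes tested, 5.04% showed such a separation upward, and since this difference chose the genes nothing is read from the 7 of 7. The median difference of the 7 genes was 2.84, against -0.01 over all genes. With Meis1 lacking the homeodomain the genes divided: Slc16a12 and Gria2 stood clearly above the empty vector, Slc22a3 and Atp1b1 slightly above it, and P2rx3, Aqp8 and Neto2 overlapped it. The plot of gene values by array shows each gene on each array.

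**Figure D1:**
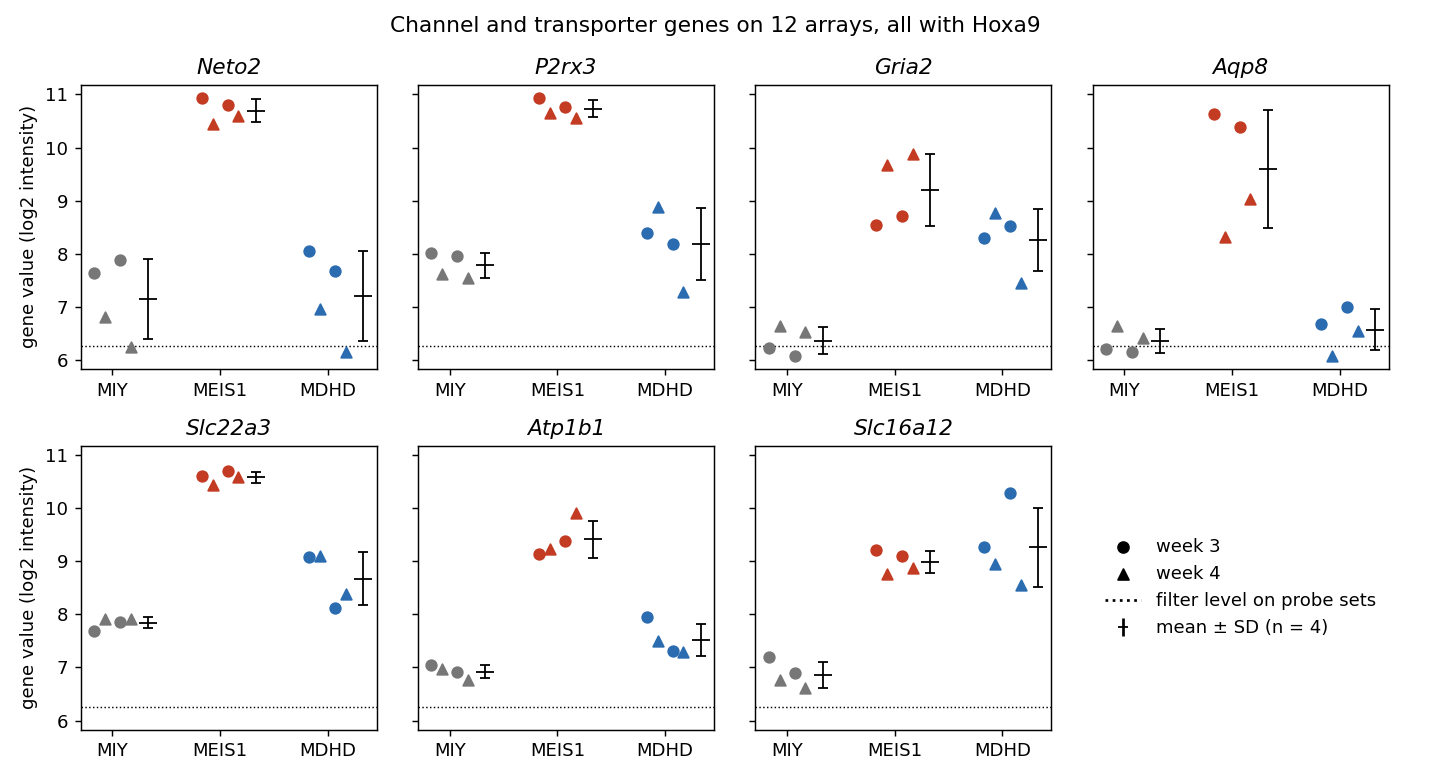
Gene values (log2 intensity, vertical axis) of the 7 genes on each of 12 arrays by condition (horizontal axis), circles for week 3 and triangles for week 4, with the mean and SD of the 4 arrays of a condition in black and the filter level of 6.2592 dotted. HOXA9+MEIS1 lies above HOXA9+MIY in every panel, while HOXA9+MDHD lies with HOXA9+MIY for Neto2 and with HOXA9+MEIS1 for Slc16a12.

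Among the glutamate receptor genes, Neto2 showed the widest gap. In HOXA9+MIY it was 7.64 and 7.88 at week 3 and 6.81 and 6.23 at week 4, in HOXA9+MEIS1 10.93 and 10.80, then 10.45 and 10.60, and in HOXA9+MDHD 8.06 and 7.68, then 6.96 and 6.14. The HOXA9+MDHD arrays followed the HOXA9+MIY arrays in both weeks, and the lowest HOXA9+MEIS1 array was still above the highest array of either other condition. The difference of HOXA9+MEIS1 from HOXA9+MIY was 3.55 ± 0.228 (SE) or 11.7-fold, and that of HOXA9+MDHD 0.07 ± 0.228 or 1.05-fold, with -0.23 without the 2 arrays of number 1.

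Gria2, which sets whether an AMPA receptor passes calcium, behaved differently from Neto2. It was 6.22 and 6.07 at week 3 and 6.63 and 6.52 at week 4 in HOXA9+MIY, 8.54 and 8.70, then 9.68 and 9.88 in HOXA9+MEIS1, and 8.30 and 8.52, then 8.76 and 7.44 in HOXA9+MDHD. All 8 arrays with either form of Meis1 lay above the empty vector, and the 2 forms overlapped. HOXA9+MEIS1 was 2.84 ± 0.293 (7.15-fold) and HOXA9+MDHD 1.89 ± 0.293 (3.72-fold) above HOXA9+MIY, the latter 1.62 without the 2 arrays of number 1. The gap between the 2 Meis1 forms was 0.21 at week 3 and 1.68 at week 4, where array 2 of HOXA9+MDHD was the lowest.

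P2rx3, the ATP-gated channel, was 8.01 and 7.95 at week 3 and 7.61 and 7.54 at week 4 in HOXA9+MIY, and 10.94 and 10.77, then 10.66 and 10.56 in HOXA9+MEIS1. In HOXA9+MDHD it was 8.39 and 8.18, then 8.88 and 7.28. The last 2 values, arrays 1 and 2 of week 4, were the highest and the lowest of their condition. The difference from HOXA9+MIY was 2.95 ± 0.240 (7.73-fold) with full-length Meis1 and 0.40 ± 0.240 (1.32-fold) without the homeodomain, and the latter was -0.05 without the 2 arrays of number 1.

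Aqp8 varied most within HOXA9+MEIS1. It was 6.21 and 6.14 at week 3 and 6.64 and 6.41 at week 4 in HOXA9+MIY, 10.64 and 10.39, then 8.31 and 9.02 in HOXA9+MEIS1, and 6.67 and 7.00, then 6.07 and 6.54 in HOXA9+MDHD. Both week 4 arrays of HOXA9+MEIS1 were below both of week 3, yet above every array of the other conditions. HOXA9+MEIS1 exceeded HOXA9+MIY by 3.24 ± 0.350 (9.45-fold), and HOXA9+MDHD did by 0.22 ± 0.350 (1.17-fold), or 0.42 without the 2 arrays of number 1.

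Slc22a3, the organic cation carrier, varied least among the 7 genes within HOXA9+MIY (SD 0.106) and within HOXA9+MEIS1 (SD 0.110). It was 7.69 and 7.85 at week 3 and 7.92 and 7.91 at week 4 in HOXA9+MIY, 10.61 and 10.70, then 10.43 and 10.59 in HOXA9+MEIS1, and 9.09 and 8.12, then 9.10 and 8.39 in HOXA9+MDHD. The 3 conditions did not overlap, and in both weeks array 1 of HOXA9+MDHD was above array 2. The differences from HOXA9+MIY were 2.74 ± 0.188 (6.67-fold) and 0.83 ± 0.188 (1.78-fold), the latter 0.41 without the 2 arrays of number 1.

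Atp1b1, the sodium pump subunit, was 7.05 and 6.92 at week 3 and 6.96 and 6.76 at week 4 in HOXA9+MIY, 9.13 and 9.39, then 9.24 and 9.92 in HOXA9+MEIS1, and 7.95 and 7.32, then 7.49 and 7.29 in HOXA9+MDHD. Here too the conditions did not overlap, with HOXA9+MDHD close above HOXA9+MIY. HOXA9+MEIS1 was 2.50 ± 0.174 (5.65-fold) and HOXA9+MDHD 0.59 ± 0.174 (1.51-fold) above the empty vector, the latter 0.38 without the 2 arrays of number 1.

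Slc16a12, the creatine transporter, was high with both forms of Meis1. It was 7.19 and 6.89 at week 3 and 6.76 and 6.61 at week 4 in HOXA9+MIY, 9.21 and 9.11, then 8.75 and 8.88 in HOXA9+MEIS1, and 9.26 and 10.29, then 8.96 and 8.56 in HOXA9+MDHD. The 2 Meis1 conditions overlapped, with array 2 of HOXA9+MDHD at week 3 the highest of all 12. The differences from HOXA9+MIY were 2.13 ± 0.206 (4.36-fold) with full-length Meis1 and 2.40 ± 0.206 (5.29-fold) without the homeodomain, the latter 2.56 without the 2 arrays of number 1.

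The position of HOXA9+MDHD on the log2 scale from the HOXA9+MIY mean (0%) to the HOXA9+MEIS1 mean (100%) was 1.90% for Neto2, 6.83% for Aqp8, 13.7% for P2rx3, 23.7% for Atp1b1, 30.3% for Slc22a3, 66.7% for Gria2 and 113% for Slc16a12. These positions used the means of all 4 arrays of each condition. Single HOXA9+MDHD arrays were instead placed between the HOXA9+MIY and HOXA9+MEIS1 means of their own week. On that scale the spread was wide: P2rx3 ran from -9.93% to 42.9%, Gria2 from 27.0% to 96.1% and Slc16a12 from 87.8% to 154%. Each gene overlapped its neighbours in this order over the 4 arrays. HOXA9+MDHD lay above HOXA9+MIY without overlap in 4 of the 7 genes, against 1.62% of all genes, and HOXA9+MEIS1 above HOXA9+MDHD in 5 of 7, against 2.67%. Slc16a12 and Gria2, among the 4, were chosen on the first of these differences and both share arrays with the other difference that chose the genes, so nothing is read from either count.

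**Figure D2:**
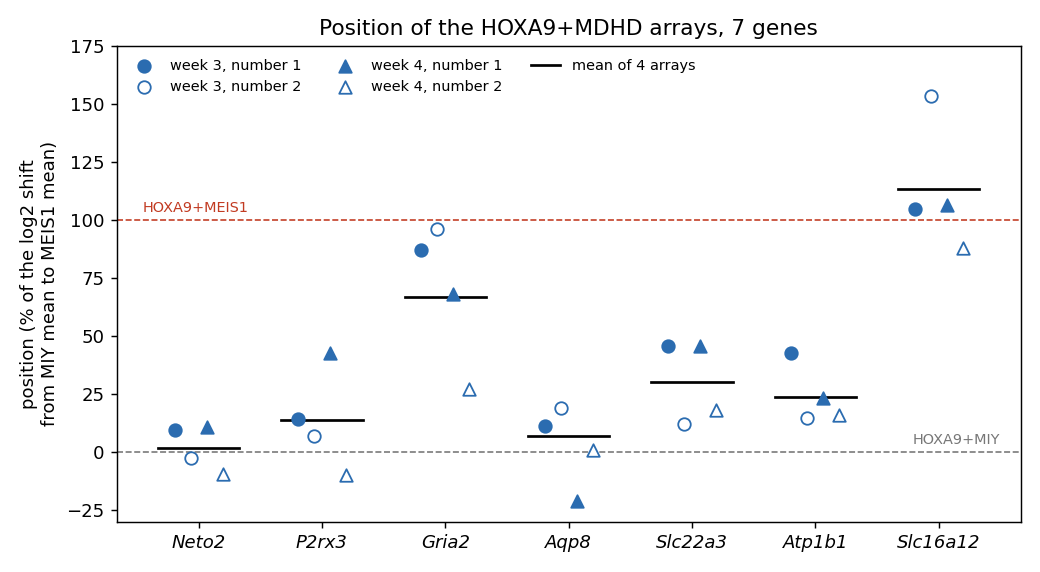
Position of each HOXA9+MDHD array (vertical axis, percent of the log2 shift from the HOXA9+MIY mean at 0 to the HOXA9+MEIS1 mean at 100) for the 7 genes. Symbols are filled for number 1 and open for number 2, with circles for week 3 and triangles for week 4. Each symbol is set against the means of its own week. Black bars place the mean of the 4 HOXA9+MDHD arrays between condition means over both weeks, so a bar need not be the average of its symbols. The bars run from 1.90% for Neto2 to 113% for Slc16a12. Relative to their own week, both filled symbols lie above both open ones in Neto2, P2rx3, Slc22a3 and Atp1b1.

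The same values can be given as a distance from a midpoint on the log2 scale. From the midpoint of HOXA9+MIY and HOXA9+MEIS1, HOXA9+MDHD stood at -1.71 ± 0.198 in Neto2, -1.40 ± 0.303 in Aqp8, -1.07 ± 0.208 in P2rx3, -0.66 ± 0.151 in Atp1b1 and -0.54 ± 0.163 in Slc22a3, each on the side of the empty vector. Without the 2 arrays of number 1 the distances were -2.01, -1.20, -1.53, -0.87 and -0.96. For Slc16a12 HOXA9+MEIS1 lay 0.92 ± 0.178 above the midpoint of HOXA9+MIY and HOXA9+MDHD, or 0.84 without the same 2 arrays. These distances are a description, since the genes were divided with the HOXA9+MDHD values in view.

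From week 3 to week 4 Neto2 and Slc16a12 fell. Neto2 fell by 0.97 ± 0.186 (limma, adjusted p = 0.00107) and Slc16a12 by 0.57 ± 0.168 (adjusted p = 0.0157), and in each condition both week 4 arrays lay below both week 3 arrays in both genes. The call of Slc16a12 was lost under the stricter filter, a mean above the 75th percentile (-0.36, adjusted p = 0.125). These 2 of 7 compare with 39.8% of all genes called for the week (28.1% lower, 11.7% higher), a share that the 7 genes did not exceed. The estimate was -0.68 for Aqp8 (adjusted p = 0.0809), -0.28 for P2rx3 (adjusted p = 0.286), 0.43 for Gria2 (adjusted p = 0.185), 0.05 for Slc22a3 (adjusted p = 0.850) and -0.02 for Atp1b1 (adjusted p = 0.943). The last 2 changed sign in some alternatives. Calls were gained by Aqp8 with the stricter filter (-0.83, adjusted p = 0.0141) and without array 2 of week 3 (adjusted p = 0.0485) or array 1 of week 4 (adjusted p = 0.0366) of HOXA9+MIY. P2rx3 was called without both HOXA9+MDHD arrays of number 1 (-0.44, adjusted p = 0.00279) and without the one of week 4 alone (-0.49, adjusted p = 0.00295), and Gria2, which then rose, without array 2 of HOXA9+MDHD at week 4 (0.69, adjusted p = 0.000986).

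The difference between full-length Meis1 and the empty vector varied most between the weeks in Aqp8. In this gene HOXA9+MEIS1 minus HOXA9+MIY was 4.34 at week 3 and 2.14 at week 4, a change of -2.19 ± 0.324 (limma interaction, unadjusted p = 4.74e-05, adjusted p = 0.137). It was called when HOXA9+MIY and HOXA9+MEIS1 were fitted alone (adjusted p = 0.0465) and without the 2 HOXA9+MDHD arrays of number 1 (adjusted p = 0.0468). Neto2 went the other way, from 3.11 to 4.00, a change of 0.89 ± 0.365 (unadjusted p = 0.0343, adjusted p = 0.751). With limma, 0 of 7 genes and 0 of 20711 were called for a week dependence of this difference, and 6.48% of all genes had an unadjusted p under 0.05. For HOXA9+MDHD minus HOXA9+MIY the counts were again 0 of 7 and 0 of 20711 with limma, with 4.81% of all genes at an unadjusted p under 0.05, and the lowest p among the 7 genes was that of Aqp8 (-0.87 ± 0.324, unadjusted p = 0.0226). Without the 2 arrays of number 1, Gria2 (-1.51, adjusted p = 0.0116) and Slc16a12 (-1.38, adjusted p = 0.0186) were called, but this leaves 1 HOXA9+MDHD array per week, which is assumed to vary like the arrays of the other conditions.

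**Figure D3:**
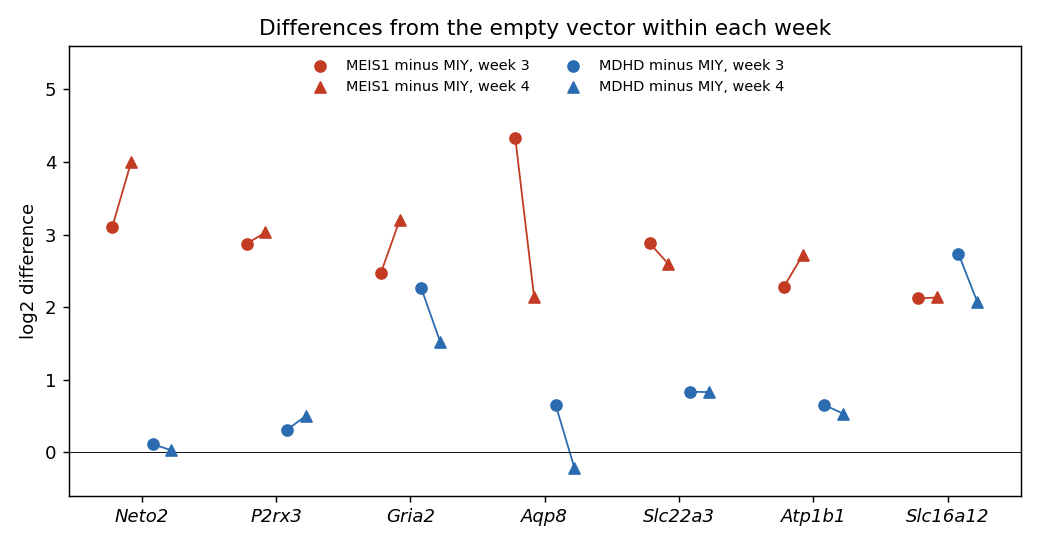
Log2 difference from HOXA9+MIY (vertical axis) at week 3 (circles) and week 4 (triangles) for HOXA9+MEIS1 in red and HOXA9+MDHD in blue, each the difference of means of 2 arrays. Aqp8 drops from 4.34 to 2.14 with full-length Meis1, whereas Slc16a12 stays at 2.12 and 2.13.

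The gene values were made from several probe sets each, which share the arrays and so describe the spread within a gene. The 7 genes had 112 probe sets, of which 100 passed the filter on dim probe sets (a mean over 12 arrays above 6.2592) and 12 did not. In 94 of the 112 HOXA9+MEIS1 was at least 2-fold above HOXA9+MIY and in 18 less than that, 12 of them within 0.5 of no difference on the log2 scale. Of the 100, 28 had a HOXA9+MIY mean below the filter level and so passed through the higher arrays, which leaves the size of the fold uncertain, above all in Gria2 (15 of 27) and Aqp8 (3 of 6). The median probe set of Neto2 differed by 3.57 with full-length Meis1 and -0.04 without the homeodomain, over 14 probe sets. In Gria2 the medians were 2.89 and 1.69 over 34 probe sets, and in Slc16a12 2.22 and 2.49 over 9. All 9 Slc16a12 probe sets had the larger difference without the homeodomain, whereas 0 of 14 did in Neto2, 0 of 7 in Aqp8, 0 of 15 in Slc22a3, 1 of 21 in P2rx3, 1 of 12 in Atp1b1 and 2 of 34 in Gria2. The 9 share the same arrays, among them the high array 2 of HOXA9+MDHD at week 3 (gene value 10.29). For the gene value of Slc16a12, HOXA9+MEIS1 minus HOXA9+MDHD was -0.62 at week 3 and 0.06 at week 4, so the excess was not seen in both weeks.

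**Figure D4:**
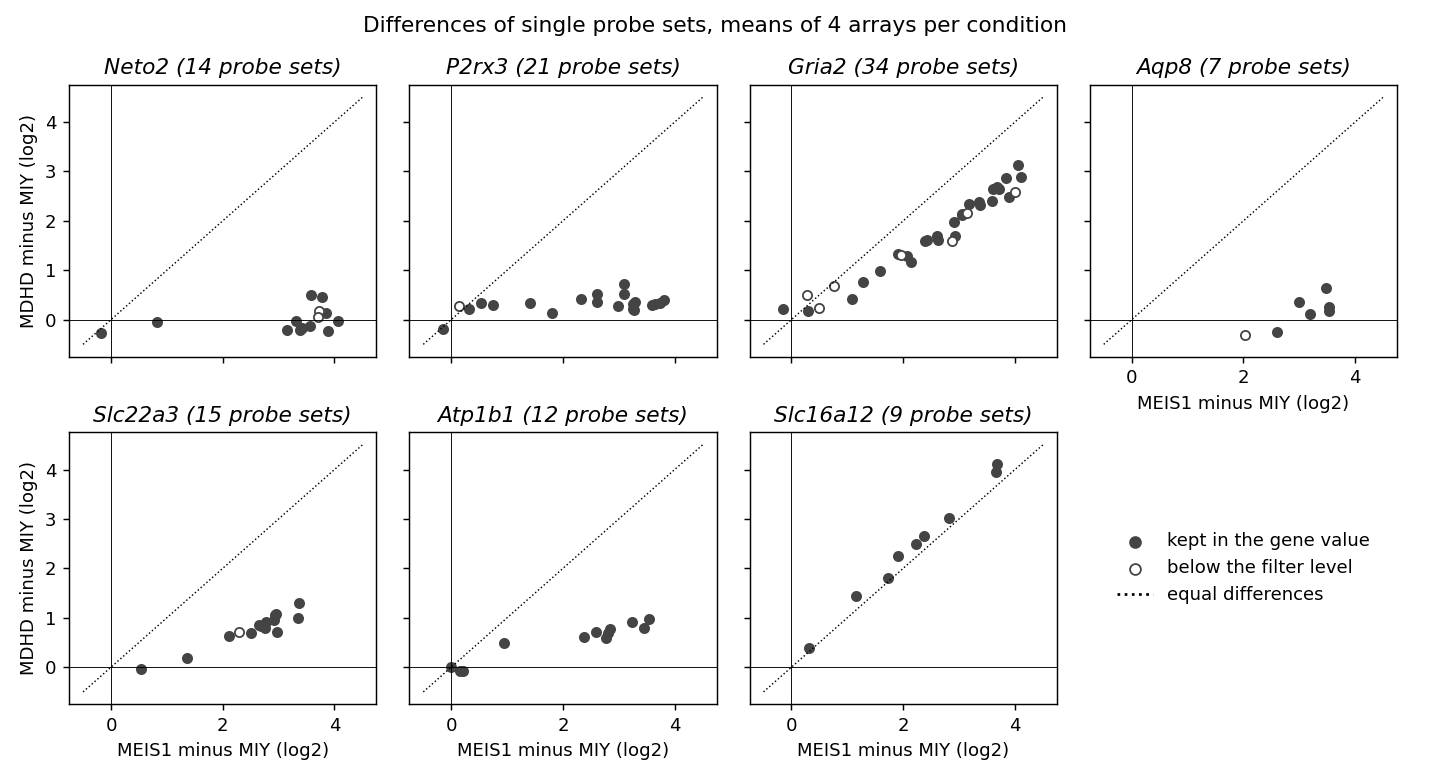
Each probe set's log2 difference of HOXA9+MEIS1 from HOXA9+MIY (horizontal axis) and of HOXA9+MDHD from HOXA9+MIY (vertical axis), means of 4 arrays per condition, one panel per gene, open symbols for the 12 probe sets below the filter level and a dotted line where both differences are equal. The probe sets of Slc16a12 lie above the line, those of Gria2 mostly below it on a slope, and those of Neto2 near 0 on the vertical axis.

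Relatives and partners of the 7 genes were examined in 6 lists. Of the 108 tested, 5 were higher and 12 lower in HOXA9+MEIS1 than in HOXA9+MIY (limma, adjusted p under 0.05), against 5.29% higher and 5.56% lower of all genes. HOXA9+MDHD differed from HOXA9+MIY in 1 gene upward and 2 downward, against 0.908% and 1.00% of all genes (1.91% in either direction), and HOXA9+MEIS1 from HOXA9+MDHD in 1 upward and 4 downward, against 2.24% and 2.11%.

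Of 26 glutamate receptor genes 0 were higher and 2 lower with full-length Meis1 (median -0.02). Gria3, another AMPA receptor subunit, was 10.77 ± 0.328 (SD, n = 4) with the empty vector, 10.09 ± 0.077 with full-length Meis1 and 11.06 ± 0.362 without the homeodomain. It fell by 0.68 with full-length Meis1 (adjusted p = 0.00170) and thus moved opposite to Gria2. Cacng8, an AMPA receptor partner protein, fell by 0.49 (adjusted p = 0.00982).

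The purinergic list held the most called genes, with 3 of 16 higher and 5 lower in HOXA9+MEIS1 than in HOXA9+MIY. P2ry10, a G protein-coupled receptor placed in this list by its symbol, was 2.84-fold higher in HOXA9+MEIS1 (1.51 ± 0.209, limma, adjusted p = 0.000485). For P2ry10, HOXA9+MDHD exceeded the empty vector 2.13-fold (1.09 ± 0.209, adjusted p = 0.0219, a call lost in 9 of 24 alternatives). Nt5e, which makes adenosine from AMP outside the cell, was 2.81-fold higher in HOXA9+MEIS1 (1.49 ± 0.262, adjusted p = 0.00262). Entpd1, which breaks down extracellular ATP, fell by 0.83 with full-length Meis1 and fell by 0.84 without the homeodomain (adjusted p = 0.000574 and 0.00569).

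Among 11 other aquaporins only Aqp9, a channel for water and glycerol, was called in HOXA9+MEIS1 minus HOXA9+MIY, and it was lower (-0.69 ± 0.118, adjusted p = 0.00226), opposite to Aqp8. In the 22 genes of the SLC22 list Slc22a4, a carnitine and ergothioneine carrier, rose by 0.48 (adjusted p = 0.00175) and Slc22a15 fell by 0.50 (adjusted p = 0.00230). In the sodium pump list 1 of 14 genes was called, Atp1b4, which fell by 0.27 (adjusted p = 0.0479, but 0.0588 with the replicate block). In the SLC16 list Slc16a10, a carrier of aromatic amino acids, rose by 0.80 (adjusted p = 0.000529) and Slc16a7, a monocarboxylate carrier, fell by 0.88 (adjusted p = 0.0105), with 1 of 19 genes higher and 2 lower.

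**Figure D5:**
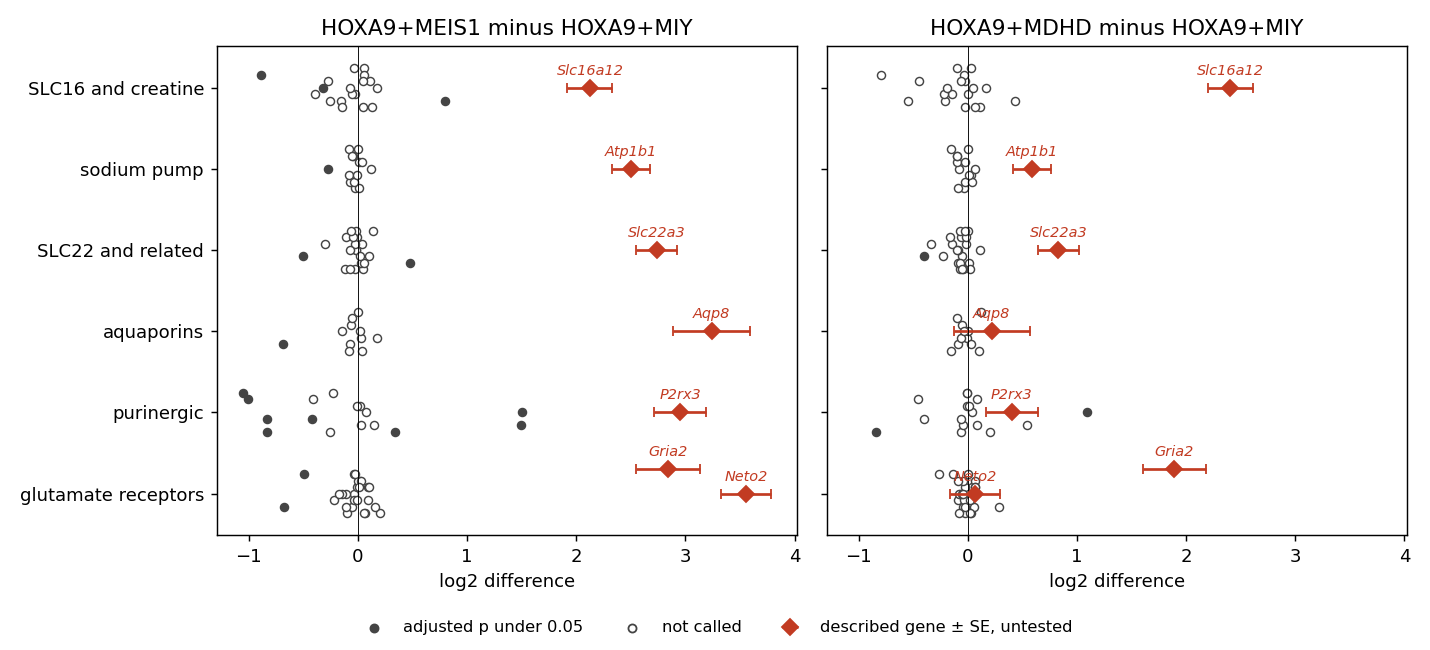
Log2 differences from HOXA9+MIY (horizontal axes) of HOXA9+MEIS1 at left and HOXA9+MDHD at right for 108 family genes (circles, filled at adjusted p under 0.05) by list, with the 7 described genes as red diamonds with standard error. With full-length Meis1 the family genes lie between -1.05 and 1.51, and each diamond lies to the right of all genes of its list. The 7 genes were chosen with these differences in view, so nothing is read from their place.

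Markers of neurons and epithelium, cells in which several of the 7 genes are known, were also measured. Of 9 neuron markers 0 were called in HOXA9+MEIS1 minus HOXA9+MIY with limma, with differences between -0.06 and 0.06, and their summed linear level ran from 1316 to 1397 in HOXA9+MIY, 1304 to 1451 in HOXA9+MEIS1 and 1286 to 1422 in HOXA9+MDHD. Of 8 epithelial markers 0 were higher and 1 was lower, the adhesion protein gene Cdh1 (-0.97 ± 0.137, adjusted p = 0.000562). Of 8 markers of stroma and endothelium 2 were higher and 0 lower, the growth factor receptor gene Pdgfrb (1.71 ± 0.168, adjusted p = 3.87e-05) and the adhesion protein gene Pecam1 (0.49 ± 0.0465, adjusted p = 3.21e-05), and the summed linear level ran from 3559 to 3875 in HOXA9+MIY, 4952 to 5207 in HOXA9+MEIS1 and 4200 to 4778 in HOXA9+MDHD. Of 5 erythroid markers 1 was higher and 0 lower, the globin gene Hbb-b1 (1.54 ± 0.307, adjusted p = 0.00591), with summed levels of 1683 to 2869, 4057 to 6588 and 3128 to 8527. The median of HOXA9+MEIS1 minus HOXA9+MIY was -0.06 over the stroma and endothelium list and 0.11 over the erythroid list. The higher sums in HOXA9+MEIS1 thus follow the few called genes and not these lists as a whole. In the other lists 1 of 9 mast cell and basophil genes was higher, 2 of 7 megakaryocyte genes and 1 of 6 B lymphoid genes were lower, and 0 of 6 T and NK genes were called. The part of these markers in the results was not tested.

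The genes whose values followed each of the 7 most closely over the 12 arrays were found by Pearson r among 2235 genes that span at least 1 on the log2 scale. The arrays share the conditions, so a high r mostly restates the difference that chose the genes. Flt3, a cytokine receptor of early progenitors, was among the 3 closest for P2rx3 (r = 0.985), Slc22a3 (r = 0.980) and Atp1b1 (r = 0.982). Neto2 was followed by Diap3 (r = 0.987), Aqp8 by Gpr12 (r = 0.990) and Gria2 by Calcrl (r = 0.968), and Slc16a12 by the efflux pump gene Abcb1a (r = 0.948). Abcb1a stood 1.63 above HOXA9+MIY with full-length Meis1 and 1.60 above it without the homeodomain, which is the pattern of Slc16a12. After the condition and week means were removed, the 21 pairs of the 7 genes had r between -0.63 and 0.79 (median 0.20) over 12 arrays, highest for Neto2 with Gria2 and lowest for Neto2 with Aqp8. The dependence of the differences on week was not removed and remains in these r. For HOXA9+MEIS1 minus HOXA9+MIY it was 0.89 in Neto2, 0.73 in Gria2 and -2.19 in Aqp8, so these r cannot be read as variation between single arrays alone.

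Promoters were read for the letters that Meis and Pbx-Hox proteins are known to prefer. RefSeq promoter windows (GRCm38.p6, 250 bases before to 50 after a start) were at hand for 6 of the 7 genes, 7 windows in all. TGACAG, a core of Meis sites, or its reverse complement CTGTCA, stood in 2 of the 7, against 19.2% of 32851 windows, and TGATTNAT, a core of Pbx-Hox sites, in 0 of 7, against 3.22%. The 100 bases before the start are shown for Slc22a3, which holds the Meis core, and for Aqp8 and Atp1b1, which do not; for Neto2 30 bases around a start inside the gene are shown. Capitals mark CTGTCA, sequences run 5′ to 3′ on the strand of the gene, and a match is not evidence of a bound site.

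Slc22a3 (chr17:12507705-12507804, minus strand): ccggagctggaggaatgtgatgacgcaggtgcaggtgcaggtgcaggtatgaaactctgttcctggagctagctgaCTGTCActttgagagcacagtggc
Neto2 (chr8:85690987-85691016, minus strand): tgcctaacataaCTGTCAtctgagaagctt
Aqp8 (chr7:123462194-123462293, plus strand): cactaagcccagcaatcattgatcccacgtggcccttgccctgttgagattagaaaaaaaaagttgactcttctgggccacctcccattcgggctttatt
Atp1b1 (chr1:164458356-164458455, minus strand): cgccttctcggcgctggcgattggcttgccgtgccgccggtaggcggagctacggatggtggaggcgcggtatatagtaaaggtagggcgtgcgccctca

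In Slc22a3 the match begins 24 bases before the start, and no window holds the Pbx-Hox core.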

How the data were processed

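The deposited values are log2 intensities per exon-level probe set, made by the authors with RMA in Affymetrix Expression Console per the submitters' processing notes, versions not given; their range was 0 to 14.93 and array medians lay between 6.258 and 6.301. Of 1256831 probe sets, 318760 named 1 symbol (22296 symbols) and were used; 6684 with several symbols and 931387 with none were left out. Probe sets with a mean log2 above 6.2592, the 50th percentile, were kept, and gene values were made by median polish (tolerance 1e-06, at most 50 iterations, 29 genes without convergence), for 20711 genes with a median of 8 probe sets.

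Condition and week were fitted over all 12 arrays with limma 3.58.1 in R 4.3.3 (lmFit, eBayes with trend, two-sided, 8 residual degrees of freedom), and week dependence in a 6-cell model (6 residual degrees of freedom). The threshold for a call was 0.05 for the p adjusted by Benjamini-Hochberg across every gene tested. Errors after ± are standard errors of log2 differences unless given as SD; p-values measure the spread between these arrays, whose number limits the precision, and arrays may share a culture. The genes, the lists and the tests were chosen with earlier results of these data known, and the lists' genes were named by a rule (up to 2 called genes with the largest change per list and comparison). Older symbols were matched through RefSeq. Plots were made with matplotlib 3.10.9 in Python 3.11.15 with pandas 2.3.3.

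A planned test of the distances from a midpoint is given as a description, because the genes were divided with the HOXA9+MDHD values in view. The numbers 1 and 2 were not used as pairs in the main models. Residual correlations were -0.315 to -0.015 for the 12 pairs matched by number across conditions. They were -0.271 to 0.047 for the 12 unmatched pairs of the same week. Both sets lie within a week, so they cannot show whether a number is the same culture in both weeks. The week tests treat the arrays as independent.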

Additional observations from a re-analysis of the deposited data

How the results depend on the processing

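The alternatives included filters, the mean of probe sets, quantile normalization, median centring, models without the week and single weeks. Each array was also left out, as were both HOXA9+MDHD arrays of number 1. The median difference of the 7 genes stayed between 2.56 and 2.94 for HOXA9+MEIS1 minus HOXA9+MIY. It stayed between 0.41 and 0.69 for HOXA9+MDHD minus HOXA9+MIY, and 1.78 and 2.33 for HOXA9+MEIS1 minus HOXA9+MDHD. The limits 0.41 and 2.33 were those without both arrays of number 1. With week and number as a replicate block, 5 family genes were higher and 10 lower in HOXA9+MEIS1 minus HOXA9+MIY, 1 higher and 2 lower in HOXA9+MDHD minus HOXA9+MIY, and 1 higher and 3 lower in HOXA9+MEIS1 minus HOXA9+MDHD; of those named, Atp1b4 lost its call in the first (adjusted p = 0.0588) and Slc22a15 in the second (adjusted p = 0.0682). The block cannot be fitted with the week terms. The median distance of the 5 genes from the midpoint was -1.34 to -0.79 over the alternatives and that of Slc16a12 0.75 to 1.10. Where a setting changed a call, the cause was not tested, beyond the smaller number of arrays.

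Members called for week dependence were 1 for HOXA9+MEIS1 minus HOXA9+MIY with these conditions alone and without both arrays of number 1, and for HOXA9+MDHD minus HOXA9+MIY 2 without both arrays of number 1 and 0 to 1 with single arrays left out. Estimates near 0 changed sign without a call. The week difference of Atp1b1 was 0.010 with the stricter filter, 0.048 with quantile normalization, 0.033 with median centring, 0.072 without both arrays of number 1 and -0.14 to 0.091 with single arrays left out; that of Slc22a3 was -0.086 to 0.16. The week dependence of HOXA9+MEIS1 minus HOXA9+MIY for Slc16a12 was -0.018 with the stricter filter and -0.14 to 0.17 with single arrays left out. That of HOXA9+MDHD minus HOXA9+MIY for Slc22a3 was 0.068 with no filter, 0.042 with the mean of probe sets, 0.050 with quantile normalization, 0.12 without both arrays of number 1 and -0.49 to 0.48 with single arrays left out, for P2rx3 -0.50 and -0.61 to 0.99, for Atp1b1 0.10 and -0.44 to 0.20 under the last 2 settings, and for Neto2 -0.50 to 0.33 with single arrays left out.

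Family genes called in HOXA9+MEIS1 minus HOXA9+MIY were 3 higher and 6 lower without the week term, 7 lower with week 3 alone, and 0 higher and 2 lower with week 4 alone. In HOXA9+MDHD minus HOXA9+MIY, 0 were higher with no filter, without the week term, with these conditions alone and with either week alone. There 1 was lower with the stricter filter, with these conditions alone, without both arrays of number 1 and with eBayes without trend, 0 without the week term and with week 4 alone, and single arrays left out gave 0 to 2 higher and 1 to 5 lower. In HOXA9+MEIS1 minus HOXA9+MDHD 2 were higher with the stricter filter, 3 with week 3 alone, 0 with week 4 alone, 4 without both arrays of number 1 and 1 to 3 with single arrays left out, and 2 were lower without the week term and 1 with week 4 alone.

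Signal near the filter level limits the fold of 28 of the 100 kept probe sets, whose HOXA9+MIY mean lay below 6.2592; Gria2 and Aqp8 had 2 of 4 HOXA9+MIY gene values below it.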
